A study of Mus musculus with 11 samples.

Results

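The genes described here are 10 feedback regulators and transcriptional targets of the extracellular signal-regulated kinase (ERK) pathway, followed through naive extra-embryonic endoderm (nEnd) cells. They were taken as a list of names: the phosphatase genes Dusp4, Dusp5 and Dusp6, the Sprouty genes Spry1, Spry2 and Spry4, the Spred genes Spred1 and Spred2, and the ETS factor genes Etv4 and Etv5. The list was chosen with earlier results of these data known, so its counts beside all genes are not independent of that choice. All 10 were found among the 48952 genes of the bulk table and among the 32285 genes of the single-cell tables, and all 10 passed the filter on low counts, together with 14185 genes in all.

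nEnd is a mouse culture taken as a model of the primitive endoderm of the blastocyst, and it was grown on embryonic fibroblast feeders in RACL, a medium with Activin A, the GSK3 inhibitor CHIR99021 and LIF. For bulk RNA-seq, an untreated nEnd line carrying an OCT4-mCherry reporter was stained for the receptor PDGFRA and sorted into cells with PDGFRA only (Pdgfra+), with both signals (DP) and with mCherry only (Oct4+), and 3 libraries were made of each. For droplet single-cell RNA-seq, Oct4LOF nEnd (line EPUc in the labels), in which 4-hydroxytamoxifen (4OHT) removes the function of both copies of Oct4 (gene symbol Pou5f1), was sorted for PDGFRA and then cultured untreated (-4OHT) or with 4OHT (+4OHT), with 1 library of each. The bulk populations come from 1 reporter line and the single-cell libraries from 1 inducible line, and RACL as listed holds no inhibitor of the ERK pathway. The study calls the bulk libraries biological replicates, and a p-value measures the spread between these libraries of 1 line.

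Fibroblast growth factors (FGFs) bind receptor tyrosine kinases and pass the signal through RAS, RAF and MEK to ERK, and in the blastocyst FGF4 from the epiblast (Epi) steers neighbouring cells of the inner cell mass towards primitive endoderm. Active ERK enters the nucleus and induces, among other genes, its own brakes, so that the transcripts of these genes are widely used as a readout of the pathway. DUSP phosphatases take phosphate off ERK itself, Sprouty and Spred proteins act further up, between the receptor and RAF, and ETV4 and ETV5 are ETS transcription factors that carry FGF signals to target genes.

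Promoter sequence was available from RefSeq (GRCm38.p6) for 7 of the 10 genes, and not used here for Dusp4, Spry4 and Etv4. The bases upstream of Etv5, Dusp5 and Dusp6 are shown because, of the genes with an entry, these had the largest differences between Oct4+ and Pdgfra+ cells in the counts below. They are chr16:22439720-22439820 (minus strand), chr19:53528895-53529108 (plus strand) and chr10:99262981-99263230 (plus strand), written 5′ to 3′ and cut where the annotated gene begins, with capitals marking the motifs found.
Etv5: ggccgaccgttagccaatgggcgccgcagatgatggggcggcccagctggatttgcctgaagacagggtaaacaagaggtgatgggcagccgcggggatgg
Dusp5: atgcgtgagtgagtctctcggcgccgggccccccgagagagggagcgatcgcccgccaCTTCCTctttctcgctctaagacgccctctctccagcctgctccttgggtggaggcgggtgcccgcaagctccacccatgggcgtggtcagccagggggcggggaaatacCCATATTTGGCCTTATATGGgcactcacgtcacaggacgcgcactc
Dusp6: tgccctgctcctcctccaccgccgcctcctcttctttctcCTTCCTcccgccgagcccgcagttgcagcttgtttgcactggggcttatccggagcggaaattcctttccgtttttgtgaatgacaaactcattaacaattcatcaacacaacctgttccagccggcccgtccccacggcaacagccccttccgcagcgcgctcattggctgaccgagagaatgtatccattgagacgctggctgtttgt

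The 250 bases before the RefSeq start of the 7 genes were searched on both strands for 8 motifs. In Dusp5 the long capital run holds 2 adjoining CArG boxes, the letters bound by serum response factor, at 82 to 73 and 72 to 63 bases before the start. A CArG box was found in 1.47% of all 32851 promoter windows of this length. The shorter capitals in Dusp5 (192 to 187 bases before the start) and in Dusp6 (210 to 205) are AGGAAG on the opposite strand, one form of the ETS core, which 29.5% of promoters hold. Spred2 held AGGAAG at 2 places and the TCF form ACAAAG (16.5% of promoters) at 1, and Spry2 held ACAAAG at 1. Spry1, Spred1 and Etv5 held none of the 8, and 5 motifs were in none of the 7. These were another ETS form, CCGGAA (12% of promoters), the AP-1 site TGANTCA (6.75%), the octamer form ATGCAAA (4.12%), the E-box CACGTG (6.02%) and the TATA box TATAAA (12.4%). A match describes letters only, and its absence says nothing about a factor.

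The genes lie apart in the genome, on 9 chromosomes (GRCm38, GENCODE annotation). Dusp4 lies at chr8:34807297-34819894 and Dusp6 at chr10:99263231-99267489, both on the plus strand. Dusp5 (chr19:53529109-53542431, plus strand), Spry1 (chr3:37639947-37644598, plus strand) and Spry4 (chr18:38586247-38601415, minus strand) each overlap an annotated gene on the opposite strand. The use of strand in the bulk counting is not given in the sources used here, so reads of these 3 genes and of their antisense partners may not have been told apart. Spry2 lies at chr14:105891947-105896819 on the minus strand, Spred1 at chr2:117121374-117182279 and Spred2 at chr11:19924375-20024026 on the plus strand, and Etv4 (chr11:101769742-101785371) and Etv5 (chr16:22381309-22439719) on the minus strand.

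The bulk libraries held 8019631 to 11642571 counts, and levels are given as CPM, counts per 1000000 counts of a library scaled by TMM. The sort was matched by the transcripts: the summed CPM of 10 endoderm markers ran from 33870 to 44600 in Pdgfra+, from 25380 to 34850 in DP and from 174 to 447 in Oct4+. The summed CPM of 10 Epi markers ran from 183 to 279, from 733 to 1178 and from 3984 to 5846 in the same order. In bulk RNA, fewer cells of a type and less RNA per cell cannot be told apart. Genes of 2C-like cells moved with the sort as well, from 1.34 to 2.69 CPM in Pdgfra+, 5.86 to 20.9 in DP and 293 to 986 in Oct4+, and the part of those cells in the values below was not tested.

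Per kilobase of exon, the order of the genes changed with the population. In Oct4+ cells Etv5 stood first at 83.4 ± 18.0 CPM per kb, followed by Spry2 at 71.3 ± 22.0 and Etv4 at 51.4 ± 22.6 (SD, n = 3), and each of these neighbours lay within the spread of the next. Dusp6 came next at 28.7 ± 1.74 CPM per kb and Spry1 last at 7.83 ± 1.99. In Pdgfra+ cells Spry2 stood first at 11.4 ± 2.17 CPM per kb, and Etv5 was among the lowest at 1.71 ± 1.16. In DP cells Dusp4 had the highest mean, 31.6 ± 25.2 CPM per kb, within its spread of Spry2 at 28.7 ± 11.2.

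**Figure D1:**
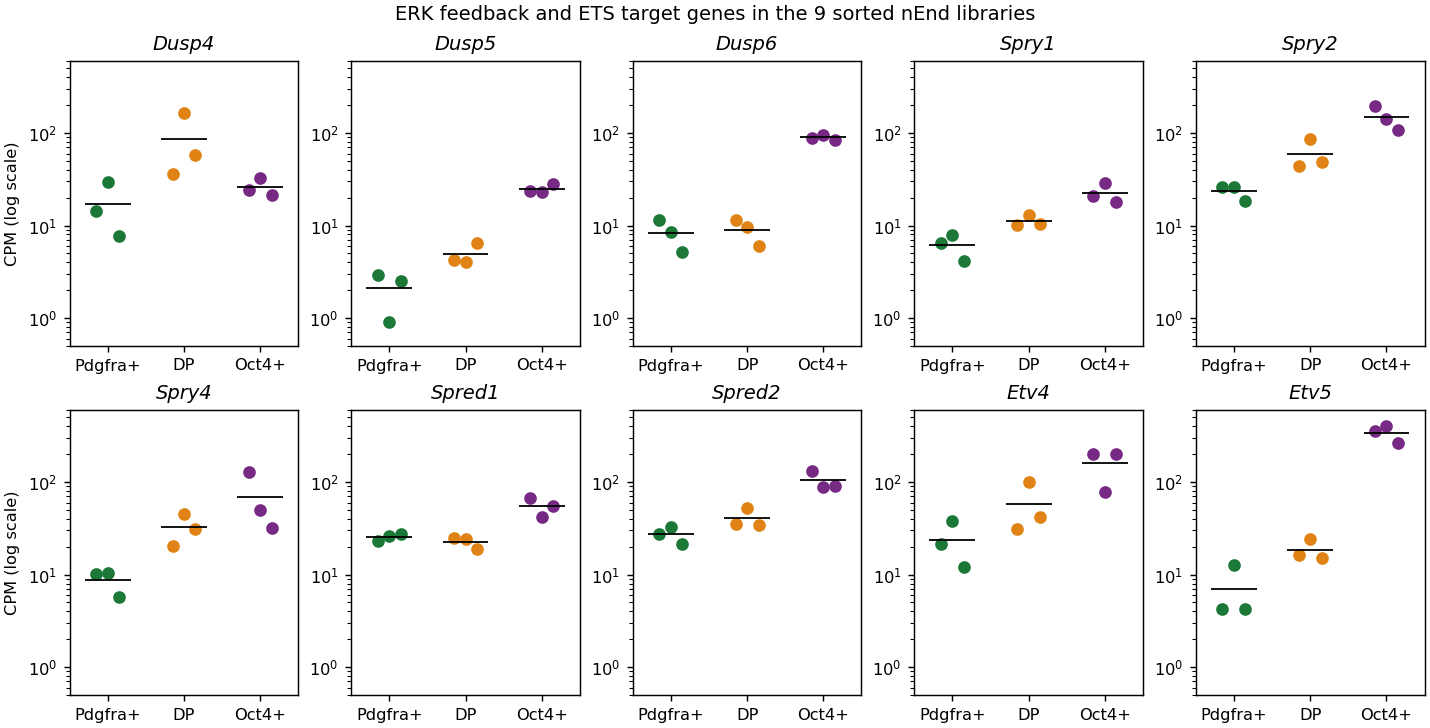
CPM of each gene in each of the 9 sorted libraries on a log axis, 1 panel per gene, with points for libraries and a line for the mean of 3. Etv5 and Dusp6 lie far higher in Oct4+ (262 to 407 and 85.1 to 95.8 CPM) than in DP or Pdgfra+, while Dusp4 is highest in DP (36.4 to 165 CPM).

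Oct4+ and Pdgfra+ cells, the ends of the sort, were compared first. Of the 10 genes, 9 had higher counts in Oct4+ by edgeR's quasi-likelihood test at an adjusted p below 0.05, and 8 of these were also past a log2 fold change of 1.5. None was lower by edgeR, also at an unadjusted p below 0.05 (0 genes), nor by DESeq2 (0 genes). This pair of populations differed widely: 32% of all genes tested were past that threshold, 17.3% of all genes as higher and 14.7% as lower, and by adjusted p alone 63.2% passed, 31.8% as higher and 31.5% as lower. The libraries of 9 genes did not overlap, against 69.3% of all genes. The median log2 fold change of the 10 genes was 2.69, and that of all genes 0.01.

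Among the phosphatases, Dusp6, which acts on ERK in the cytoplasm, was at 11.4, 8.57 and 5.12 CPM in Pdgfra+ replicates 1 to 3 and at 88.7, 95.8 and 85.1 CPM in Oct4+. The Oct4+ libraries lay close together and far above every Pdgfra+ library. The log2 fold change was 3.43 (SE 0.30, adjusted p 1.15e-05 by edgeR), or 10.8-fold. Dusp5, a nuclear phosphatase of ERK, was at 2.93, 0.897 and 2.51 CPM in Pdgfra+ and at 23.4, 23.3 and 28.2 CPM in Oct4+. Here too the groups were well apart, with a log2 fold change of 3.57 (SE 0.40, adjusted p 4.32e-05 by edgeR). Dusp4, a nuclear phosphatase as well, was at 14.4, 29.4 and 7.62 CPM in Pdgfra+ and at 24.0, 32.3 and 21.2 CPM in Oct4+. These ranges overlapped, and the log2 fold change of 0.59 (SE 0.58) did not pass the test (adjusted p 0.393 by edgeR).

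The Sprouty and Spred genes, inhibitors between receptor and RAF, were higher in Oct4+ in every case. Spry2 stood at 26.2, 26.4 and 18.5 CPM in Pdgfra+ and at 198, 142 and 107 CPM in Oct4+, a log2 fold change of 2.65 (SE 0.31, adjusted p 6.02e-05 by edgeR). Spry4 stood at 10.1, 10.5 and 5.74 CPM in Pdgfra+ and at 127, 49.98 and 31.7 CPM in Oct4+, a log2 fold change of 2.99 (SE 0.52, adjusted p 0.000671 by edgeR). Oct4+ replicate 1 was far above the others for Spry4, and no library overlapped for either gene. Spry1 was at 4.18 to 7.87 CPM in Pdgfra+ and at 18.0 to 29.2 CPM in Oct4+, and its log2 fold change was 1.88 (SE 0.29, adjusted p 0.000346 by edgeR). Spred2, which like Spred1 brings neurofibromin to RAS, was at 21.6 to 33.1 CPM in Pdgfra+ and at 89.4 to 133 CPM in Oct4+, with a log2 fold change of 1.93 (SE 0.25, adjusted p 9.59e-05 by edgeR). Spred1 passed by adjusted p only: it was at 23.2, 26.4 and 27.7 CPM in Pdgfra+ and at 68.1, 42.5 and 54.9 CPM in Oct4+, a log2 fold change of 1.10 (SE 0.20, adjusted p 0.000863 by edgeR).

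The ETS factor gene Etv5 had the largest difference of the 10. It was at 4.27, 12.6 and 4.28 CPM in Pdgfra+ and at 358, 407 and 262 CPM in Oct4+. Every Oct4+ library lay more than an order of magnitude above every Pdgfra+ library, with a log2 fold change of 5.59 (SE 0.44, adjusted p 5.8e-06 by edgeR), or 48.1-fold. Etv4 was at 21.2, 38.4 and 12.2 CPM in Pdgfra+ and at 200, 78.7 and 200 CPM in Oct4+. Its groups did not overlap, although Oct4+ replicate 2 was well below the other two, and its log2 fold change was 2.73 (SE 0.55, adjusted p 0.00165 by edgeR). Oct4+ replicate 1, the highest library for Spry2, Spry4, Spred1 and Spred2, also held the most fibroblast marker RNA, with a summed 166 CPM over 10 feeder markers against 30.7 and 17.6 CPM in replicates 2 and 3. The same sum was 50.9 to 143 CPM in Pdgfra+ and 18.3 to 62.5 CPM in DP. In these 2 populations it was mostly Fbn1, at 35.2 to 139 CPM in Pdgfra+ and 10.6 to 53.7 CPM in DP. Col1a1 was at most at 2.61 CPM in Pdgfra+ and 0.523 CPM in DP. In Oct4+, Fbn1 was at 5.87 to 12.9 CPM and Col1a1 reached 68.3 CPM. Without Oct4+ replicate 1, as without each of the other Oct4+ and Pdgfra+ libraries in turn, the count of 8 genes past the threshold stayed at 8.

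**Figure D2:**
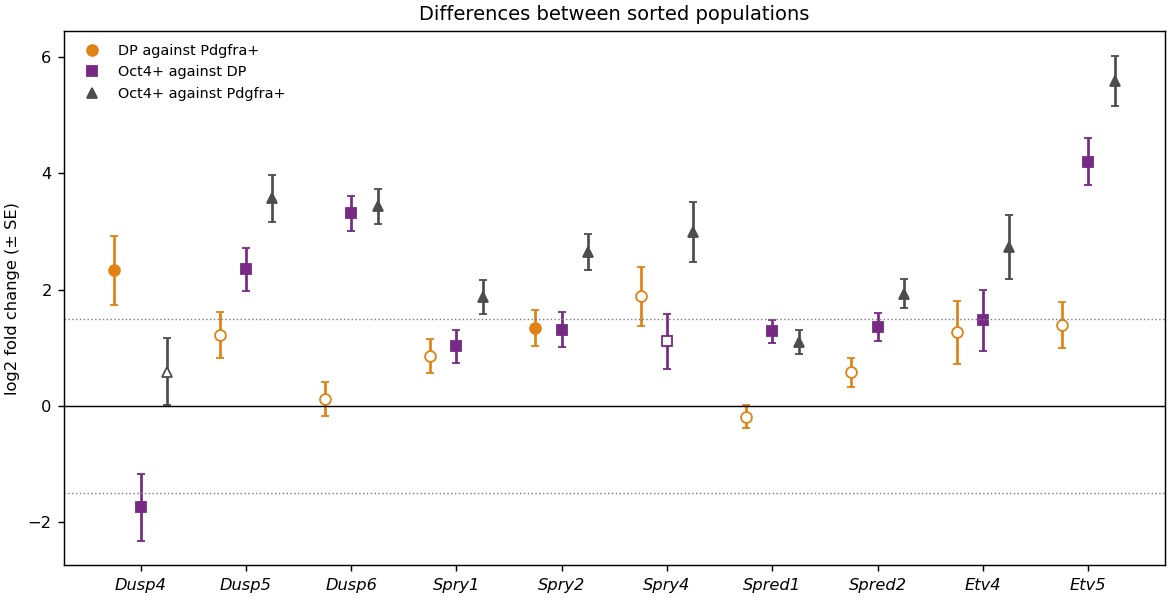
Log2 fold change of each gene in the 3 comparisons of sorted populations, with bars of 1 standard error from edgeR. Etv5 reaches 5.59 in Oct4+ against Pdgfra+, and Dusp4 alone is positive in DP against Pdgfra+ (2.33) and negative in Oct4+ against DP (-1.74) beyond the threshold.

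The rest of the pathway was described from lists of related genes. Of 26 genes of the core ERK cascade, 1 was past the threshold as higher in Oct4+ than in Pdgfra+ and 2 as lower, with a median log2 fold change of -0.22. The higher one was the scaffold gene Ksr1 (32.3 against 2.48 CPM), and the lower ones were the adaptor gene Frs2 (67.8 against 261 CPM) and the small GTPase gene Rras (16.2 against 53.6 CPM). Among the other 7 MAP kinase phosphatases, 2 were higher and 2 lower, led by Dusp2 (2.30 against 0.104 CPM), Dusp8 (2.51 against 22.1 CPM) and Dusp1 (43.7 against 12.5 CPM). Of 8 other receptor-level regulators tested, Flrt3 was past the threshold and lower in Oct4+ (8.67 against 494 CPM).

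Other ETS factors went both ways, with 2 of 12 higher and 2 lower. Etv1, a close relative of Etv4 and Etv5, had 912 counts over the Oct4+ libraries and 0 in every Pdgfra+ library, at least 264-fold higher in Oct4+ against a floor of 3 counts over the group. Ets1 (5.35 against 75.2 CPM) and Elf1 (12 against 78 CPM) were lower. Of 11 other ERK-responsive genes tested, 4 were higher and 2 lower, among them the cyclin gene Ccnd1 (51.1 against 2.61 CPM), the urokinase receptor gene Plaur (7.81 against 149 CPM) and Ier3 (3.69 against 27.7 CPM). Of 8 FGF ligands and receptors tested, 2 were higher, Fgf4 (107 against 0.439 CPM) and Fgfr1 (93.1 against 1.02 CPM), and 4 were lower, with Fgfr3 the largest (1.60 against 31.1 CPM). Of 6 fibroblast markers tested, 3 were higher and 1 lower.

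Oct4+ was then compared with DP, where both populations show the signal of the OCT4 reporter. Of the 10 genes, 3 were past the threshold as higher in Oct4+ and 1 as lower, and by adjusted p alone 8 were higher and 1 lower. Of all genes, 14.6% were past the threshold as higher and 13.1% as lower (27.7% together), and 56.2% passed by adjusted p, 27.9% as higher and 28.3% as lower. The libraries of 8 genes did not overlap, against 62.6% of all genes. This comparison shares the Oct4+ libraries with the one above, so that the values stand side by side and are not independent.

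Etv5, Dusp6 and Dusp5 were the 3 past the threshold as higher. Etv5 was at 16.3, 24.4 and 15.03 CPM in DP, far under its Oct4+ libraries, with a log2 fold change of 4.20 (SE 0.40, adjusted p 2.49e-05 by edgeR), or 18.4-fold. Dusp6 was at 11.3, 9.68 and 6.01 CPM in DP, with a log2 fold change of 3.31 (SE 0.30, adjusted p 1.93e-05 by edgeR). Dusp5 was at 4.24, 4.01 and 6.41 CPM in DP, with a log2 fold change of 2.35 (SE 0.37, adjusted p 0.00048 by edgeR). For all 3 the DP libraries lay well below every Oct4+ library.

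Dusp4 went the other way. It stood at 36.4, 165 and 57.9 CPM in DP, above the 24.0, 32.3 and 21.2 CPM of Oct4+, with no overlap and with DP replicate 2 far above the rest. The log2 fold change was -1.74 (SE 0.57, adjusted p 0.0252 by edgeR), or 3.35-fold lower in Oct4+. Without DP replicate 2 it was -0.88 (adjusted p 0.133 by edgeR), and the adjusted p was 0.0708 and 0.0697 without Oct4+ replicates 1 and 3.

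The inhibitors between receptor and RAF and Etv4 differed less. Spry2 was at 44.3, 86.9 and 48.9 CPM in DP (log2 fold change 1.31, SE 0.30, adjusted p 0.00385 by edgeR). Spred2 was at 35.3, 52.9 and 34.0 CPM in DP (log2 fold change 1.36, SE 0.24, adjusted p 0.000963 by edgeR), and Spred1 at 24.7, 24.3 and 19.0 CPM (log2 fold change 1.28, SE 0.20, adjusted p 0.000452 by edgeR). Spry1 was at 10.1, 13.1 and 10.3 CPM (log2 fold change 1.02, SE 0.29, adjusted p 0.0114 by edgeR). These 4 did not overlap with Oct4+. Etv4, at 31.4, 99.4 and 41.8 CPM in DP, overlapped with Oct4+ and had a log2 fold change of 1.47 (SE 0.53, adjusted p 0.0355 by edgeR). The Etv4 call was lost without Oct4+ replicates 1 or 3 (edgeR adjusted p 0.104 and 0.0922) and without DP replicates 1 or 3 (0.121 and 0.117). Spry4, at 20.5, 45.1 and 31.5 CPM, overlapped as well and did not pass (log2 fold change 1.11, SE 0.48, adjusted p 0.0718 by edgeR), but did without Oct4+ replicate 3 (adjusted p 0.0179 by edgeR).

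In the pathway lists, Oct4+ against DP gave 1 of 26 core cascade genes past the threshold as higher (Ksr1, 32.3 against 2.68 CPM) and none as lower by edgeR or DESeq2, while 3 were higher and 9 lower by adjusted p and 10 lower at an unadjusted p below 0.05. Of 7 other phosphatases 2 were higher and 1 lower (Dusp8, 2.51 against 16.4 CPM), and of 8 receptor-level regulators 1 was lower (Flrt3, 8.67 against 448 CPM). Of 12 other ETS factors 1 was higher (Etv1, 27.8 against 1.14 CPM) and 3 lower. Of 11 ERK-responsive genes 3 were higher and 2 lower. Fgf4 was at 107 CPM in Oct4+ against 2.51 in DP and Fgfr1 at 93.1 against 4.22, and 5 of the 8 FGF ligands and receptors were lower in Oct4+, led by Fgf10 (3.40 against 105 CPM). Of 6 fibroblast markers tested, 2 were higher and 1 lower.

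DP was last compared with Pdgfra+, the endoderm cells sorted with and without the signal of the reporter. Of the 10 genes only Dusp4 was past the threshold, and Spry2 passed by adjusted p alone. Of all genes, 3.89% were past the threshold (3.2% as higher, 0.691% as lower) and 6.87% passed by adjusted p (4.62% as higher, 2.26% as lower). The libraries of 7 genes did not overlap, against 34.3% of all genes. The median log2 fold change was 1.24 for the 10 genes and 0.02 for all genes. This comparison shares a population with each of the other two.

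Dusp4, at 14.4, 29.4 and 7.62 CPM in Pdgfra+ and at 36.4, 165 and 57.9 CPM in DP, had a log2 fold change of 2.33 (SE 0.59, adjusted p 0.0451 by edgeR), or 5.03-fold. No DP library overlapped with Pdgfra+, and replicate 2 was the highest library in both populations. The call was lost in 5 of the 6 fits that left out 1 library, at edgeR adjusted p 0.156 and 0.0838 without DP replicates 2 and 3 and 0.123, 0.0571 and 0.148 without Pdgfra+ replicates 1, 2 and 3, and at 0.0751 when the 6 libraries were fitted alone. Spry2, at 18.5 to 26.4 CPM in Pdgfra+ and 44.3 to 86.9 CPM in DP, had a log2 fold change of 1.34 (SE 0.30, adjusted p 0.0339 by edgeR). Every DP library of Spry2 lay above every Pdgfra+ library, and its edgeR adjusted p was 0.108 and 0.0666 without DP replicates 2 and 3 and 0.0692, 0.0769 and 0.129 without Pdgfra+ replicates 1, 2 and 3.

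The other 8 genes did not pass in this fit. Spry4 (log2 fold change 1.88, SE 0.51, adjusted p 0.0547 by edgeR) and Etv5 (1.39, SE 0.40, adjusted p 0.0637 by edgeR) came closest, both with DP libraries above all Pdgfra+ libraries. Spry4 passed without DP replicate 1 (adjusted p 0.0402 by edgeR) and Etv5 without Pdgfra+ replicate 2 (adjusted p 0.0319 by edgeR). Dusp5 (1.22, adjusted p 0.0935 by edgeR), Spry1 (0.86, adjusted p 0.108 by edgeR) and Spred2 (0.58, adjusted p 0.172 by edgeR) were also without overlap. Etv4 had a log2 fold change of 1.26 (adjusted p 0.174 by edgeR) with overlapping libraries. Dusp6 (0.12, SE 0.30, adjusted p 0.834 by edgeR) and Spred1 (-0.19, SE 0.20, adjusted p 0.595 by edgeR) had the smallest differences, with Dusp6 at 8.35 ± 3.13 CPM in Pdgfra+ and 9.01 ± 2.73 CPM in DP (SD, n = 3).

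Libraries of DP and Pdgfra+ with the same replicate number deviated together, so that the blocked values stand beside these. With the replicate block on all 9 libraries, 2 of the 10 genes were past the threshold and 5 passed by adjusted p. These were Dusp4 (adjusted p 0.0205 by edgeR), Spry4 (0.0447), Spry2 (0.0268), Etv5 (0.0226) and Spry1 (0.0467). In that fit 598 of all 14185 genes were past the threshold and 1165 passed by adjusted p. On the 6 libraries compared the block gave 3 past the threshold and 7 by adjusted p. There 713 of all 12541 genes were past the threshold and 2536 passed by adjusted p. Dusp4, Spry2 and Spry4 were at edgeR adjusted p 0.0184, Etv5 at 0.0194, Etv4 at 0.0221, Spred2 at 0.0282 and Spry1 at 0.0417. Within the 3 numbered pairs, DP was above Pdgfra+ in 3 of 3 for 8 of the genes, in 2 of 3 for Dusp6 and in 1 of 3 for Spred1. The share of all genes with DP above in 3 of 3 was not computed, so this count has no background.

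Few genes of the pathway lists differed between DP and Pdgfra+. No gene of the core cascade (26), the other phosphatases (7), the receptor-level regulators (8) or the ERK-responsive genes (11) was past the threshold by edgeR or by DESeq2. By adjusted p alone 2 core genes were higher and 1 lower and 1 responsive gene was higher. At an unadjusted p below 0.05 edgeR gave 2 core genes as higher and 3 as lower, and 1 phosphatase as lower. It also gave 1 receptor-level regulator as higher and 3 as lower, and 2 responsive genes as higher. Etv1 was the 1 other ETS factor of 12 past it, with 28 counts over the DP libraries (0.392 to 1.65 CPM) and 0 in Pdgfra+, at least 10.7-fold higher in DP against a floor of 3 counts over the group. Of 8 FGF ligands and receptors, 3 were higher in DP: Fgf4 (2.51 against 0.439 CPM, log2 fold change 2.504), Fgfr1 (4.22 against 1.02 CPM, 2.05) and Fgfr2, the receptor of the primitive endoderm (95.5 against 30.6 CPM, 1.64). No fibroblast marker of 6 was past the threshold by edgeR (1 higher at an unadjusted p below 0.05, 1 higher by DESeq2), and their median log2 fold change was -0.27.

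The place of DP between the ends was then expressed per gene, with the Pdgfra+ mean at 0 and the Oct4+ mean at 1 on log2 CPM. Dusp6 lay at 0.04 (range over 3 libraries -0.11 to 0.15) and Spred1 at -0.18 (-0.41 to -0.05), both at the Pdgfra+ end. Etv5 lay at 0.27 (0.22 to 0.34), Spred2 at 0.29 and Dusp5 at 0.35, while Etv4 (0.45), Spry1 (0.47) and Spry2 (0.49) lay near the middle and Spry4 at 0.66 (0.45 to 0.86). Dusp4 lay beyond the Oct4+ end, at 2.89 (1.67 to 4.48), on a distance between the ends of only 0.77 log2 units that did not pass the test. The Dusp6 range did not overlap with those of the 8 genes above it. These ranges cover the 3 DP libraries only and leave out the spread of Pdgfra+ and Oct4+ around their means.

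**Figure D3:**
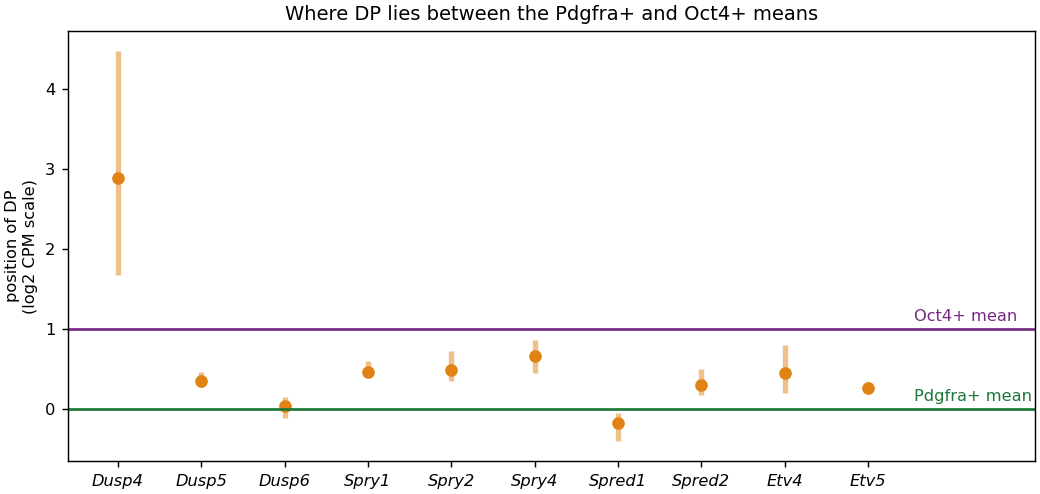
Position of DP between the Pdgfra+ mean (0) and the Oct4+ mean (1) on the log2 CPM scale, with points for the mean and bars from the lowest to the highest of 3 libraries. Dusp6 (0.04) and Spred1 (-0.18) sit at the Pdgfra+ line, Etv5 at 0.27, Spry4 at 0.66 and Dusp4 above the Oct4+ line at 2.89.

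Over the 9 libraries the genes other than Dusp4 went together, with Pearson's r of log2 CPM from 0.60 (Spry4 with Spred1) to 0.97 (Spred2 with Etv5) over 36 pairs. Dusp4 stood apart, with r from -0.25 (Spred1) to 0.51 (Spry4) over 9 pairs. The points are the same 9 libraries in 3 populations, so that these values describe the differences between populations again. Among 10517 genes with at least 10 CPM in a population, the nearest pattern to Etv5 was that of Alg13 (r = 0.995, 25.5, 48.0 and 261 CPM in Pdgfra+, DP and Oct4+), to Dusp6 that of the methionine adenosyltransferase gene Mat2a (0.99), to Dusp5 that of the germ cell gene Dazl (0.99) and to Dusp4 that of the protease gene Adamts7 (0.98). For Spred1 it was Myc (0.98), for Spred2 Noct (0.996), for Spry2 Zfp710 (0.99), for Spry1 Atmin (0.99), for Spry4 Nectin3 (0.98) and for Etv4 Nup85 (0.98).

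In the single-cell libraries, 5324 of 6896 -4OHT barcodes and 6299 of 7283 +4OHT barcodes had at least 1000 genes and at most 10% mitochondrial UMIs. The 2 libraries shared 21 barcodes. Both were clustered together without the 10 genes and the pathway lists among the clustering genes, and clusters were named by markers. In -4OHT, 1373 cells (25.8%) were endoderm-like and 3684 (69.2%) Epi-like, the latter present although the cells had been sorted for PDGFRA before culture. In +4OHT, 6062 cells (96.2%) were endoderm-like and 0 were Epi-like, which allows a share of up to 0.0476% for counting error only. Each condition was 1 library, so that no difference between conditions has a replicate check or a test, and levels are CPM, here UMIs per 1000000 UMIs of the cells summed, with exact Poisson 95% intervals that cover counting error only. Median depth was 17947 and 12647 UMIs per cell.

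Pou5f1, the targeted gene, was at 40.4 CPM (39.2 to 41.6) in the -4OHT library and at 2.47 (2.16 to 2.81) in the +4OHT library. Within endoderm-like cells it was at 15.1 and 1.74 CPM, and its values by cluster are given with the clusters. Where the deleted stretch lies relative to the sequenced 3′ ends is not given in the sources used here, so this is no full check of the deletion. Different clusters held the endoderm-like cells of each library. In -4OHT, 731 of them lay in a cluster led by Amn and Cubn, 461 in a cluster led by Car4 and Pitx1 and 181 in a cluster led by Gkn1 and Tff1. In +4OHT the same clusters held 26, 2115 and 3921 cells. Pou5f1 was at 21.8 CPM in the Amn and Cubn cluster of -4OHT, at 3.61 in -4OHT and 1.03 in +4OHT cells of the Car4 cluster, and at 2.03 and 2.32 in the Gkn1 cluster, where the ratio of -4OHT over +4OHT of 0.873 had an interval of 0.234 to 2.30.

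Within the -4OHT library, Epi-like cells held more of most of these transcripts than endoderm-like cells. At 20 CPM or more in either class, 7 of the 10 genes could be judged by a ratio beyond 2, and all 7 were higher in Epi-like cells, where 9.15% of 6653 genes were higher and 19.1% lower (28.2% together). Etv5, Dusp6, Spry4 and Spred1 reached 20 CPM in Epi-like cells only, so their direction in this count followed from the filter. Spry2, Spred2 and Etv4 reached it in both classes. Etv5 was at 92.7 CPM (90.5 to 94.9) against 11.7 (10.4 to 13.2), a ratio of 7.90. Dusp6 was at 22.4 (21.3 to 23.5) against 2.87 (2.21 to 3.66), a ratio of 7.81. These 2 genes had the largest ratios over the pooled class, and the other 5 lay between 2.31 and 3.64. The order rested on the Amn and Cubn cluster, described below: without it the log2 ratio was 5.01 for Spry4 (1.86 with it), 4.42 for Etv5 (2.98), 4.10 for Etv4 (1.62) and 3.50 for Dusp6 (2.96).

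Spry4 was at 27.8 CPM against 7.66, Etv4 at 82.8 against 26.9, Spred1 at 25.5 against 10.2, Spry2 at 51.8 against 21.1 and Spred2 at 46.4 against 20.1. Dusp5 (5.26 against 2.15) and Spry1 (8.58 against 3.99) were under 20 CPM in both classes. Dusp4, also under it, was at 4.00 CPM (3.55 to 4.48) in Epi-like and 18.0 (16.3 to 19.9) in endoderm-like cells, the reverse of the others in the pooled class. That direction came from the Amn and Cubn cluster: the log2 ratio of Dusp4 was -2.17 with all endoderm-like cells, -2.76 against that cluster alone and 0.93 without it, and 0.17 and 1.29 against the Gkn1 and Car4 clusters alone. The 2 Epi-like clusters were not alike: the cluster led by Dpys and Ankrd31 held more Etv4 (105 against 69.3 CPM) and Spred2 (58.3 against 39.2) than the cluster led by Cdx1 and Mylpf, and less Spry4 (16.8 against 34.5), Spry2 (41.2 against 58.2) and Spred1 (18.2 against 29.8). Etv5 was at 98.0 and 89.5 CPM in these clusters.

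Among -4OHT endoderm-like cells the cluster led by Amn and Cubn had the highest level of 7 of the 10 genes. The share of all genes that were highest in this cluster was not computed, so the count has no background. There Dusp4 was at 27.0 CPM (24.4 to 29.9), Etv4 at 39.4 (36.2 to 42.8) and Etv5 at 15.9 (13.9 to 18.1). In the clusters led by Gkn1 and by Car4, Dusp4 was at 3.55 (1.43 to 7.32) and 1.64 (0.786 to 3.01), Etv4 at 4.06 and 5.08 and Etv5 at 4.06 and 4.42. The Amn and Cubn cluster was thus above both of the others for each of the 3 genes, with intervals apart. Spry4 was at 11.5 against 1.01 and 0.819 CPM, Spry1 at 5.62 against 1.01 and 1.15 and Spry2 at 26.9 against 11.7 and 10.7. Spred2 was at 23.0 (20.6 to 25.7) against 18.8 (13.2 to 25.9) and 13.6 (10.8 to 16.9), so that its interval overlapped with that of the Gkn1 cluster. The other 3 genes did not follow: Spred1 was at 8.14 against 13.7 and 13.9 CPM, Dusp6 at 3.37 against 4.56 and 1.15 and Dusp5 at 2.18 against 1.52 and 2.29.

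Scrublet marked 8.19% of the Amn and Cubn cluster as doublets, and Epi markers were present in it. As a percentage of the Epi-like level, the 10 Epi markers ran from 7.5% (Fgf4) to 67.1% (Dppa5a), with a median of 16.2%, and Pou5f1 was at 45.0%. The 10 genes ran from 15% (Dusp6) and 17.2% (Etv5) through 47.6% (Etv4) and 65.5% (Spry1) to 676% (Dusp4). With the marked cells left out, the log2 ratio of Epi-like over endoderm-like cells went from 2.96 to 3.82 for Dusp6 and from 2.98 to 3.65 for Etv5, while it was -2.17 and -2.16 for Dusp4 and 1.86 and 2.06 for Spry4. The part of unmarked doublets and of free RNA was not tested. In the clusters led by Gkn1 and Car4, Etv5 was at 4.38% and 4.77% and Etv4 at 4.90% and 6.14% of the Epi-like level, inside the range of the Epi markers there (1.59% to 15% and 2.07% to 18.2%). Those levels cannot be told from background RNA. The 20 fibroblast-like cells of the -4OHT library had Dusp4 at 49.5 CPM (32.9 to 71.6), and their markers summed to 3880 CPM against 42.5 in endoderm-like cells.

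**Figure D4:**
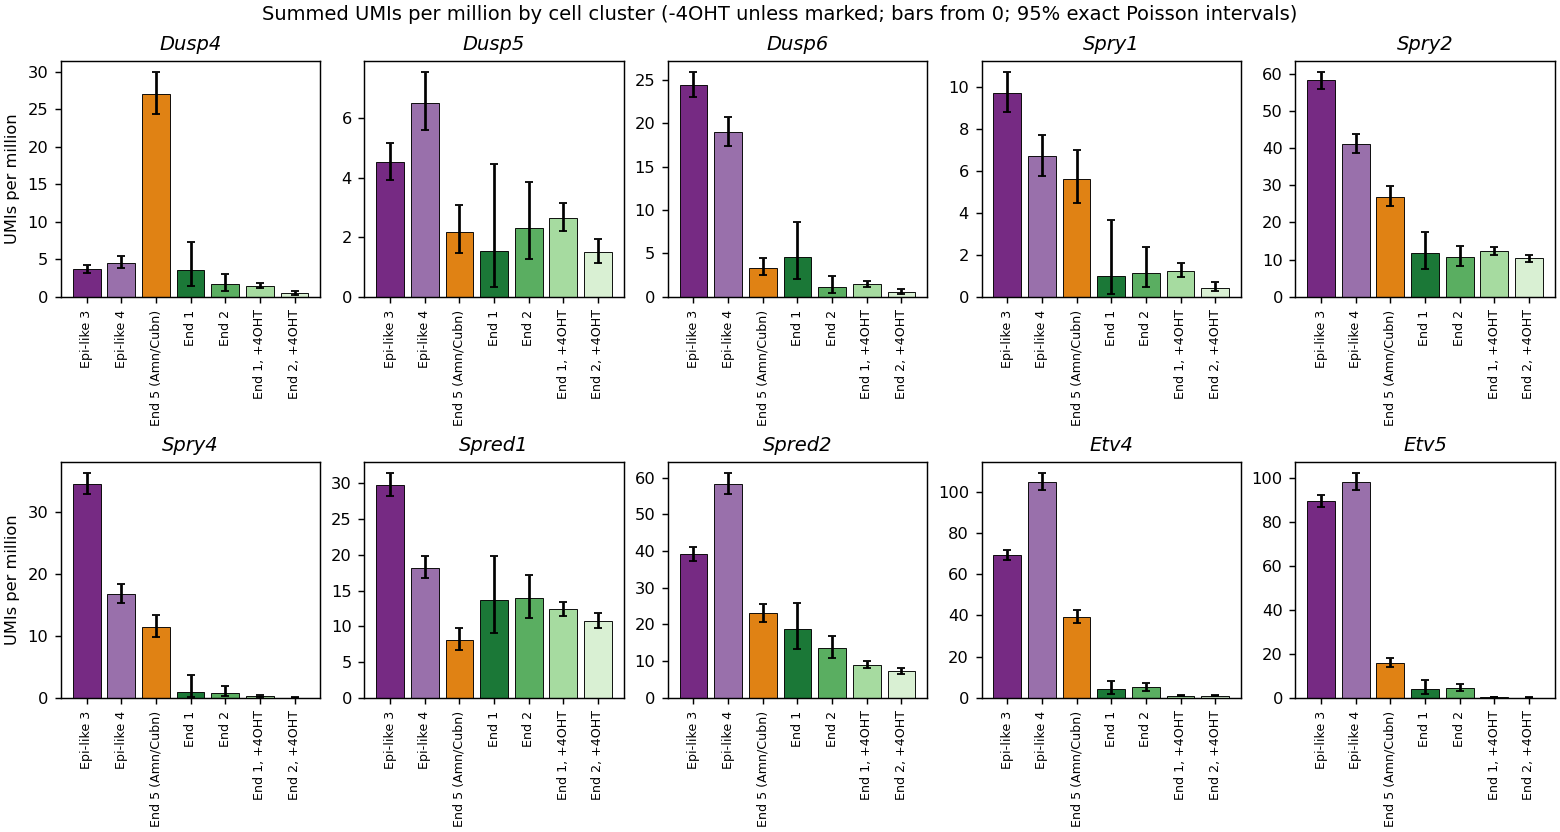
UMIs per 1000000 UMIs (CPM) of each gene by cluster and library, with bars for the exact Poisson 95% interval (counting error only). Etv5 lies near 90 in the Epi-like clusters (89.5 and 98.0) and at 0.366 and 0.103 in the +4OHT endoderm-like clusters, and Dusp4 is higher in the Amn and Cubn cluster (27.0) than in either Epi-like cluster (3.66 and 4.56).

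Endoderm-like cells of the +4OHT library were set beside those of the -4OHT library. Spred2 was at 8.20 CPM (7.60 to 8.83) with 4OHT and 20.1 (18.3 to 22.0) without, 2.45-fold lower, and Etv4 at 1.04 (0.836 to 1.28) and 26.9 (24.8 to 29.1), 25.8-fold lower. They were the 2 genes beyond a ratio of 2 among the 3 that reached 20 CPM in a library, where 3.47% of 6810 genes were lower and 8.46% higher (11.9% together). All 3 reached 20 CPM in the -4OHT library only, so the direction of this count followed from the filter and is no finding. The third, Spry2, was at 11.4 and 21.1 CPM, 1.86-fold lower. Under 20 CPM in both libraries, Etv5 was at 0.246 (0.152 to 0.375) and 11.7 (10.4 to 13.2), Spry4 at 0.152 (0.0809 to 0.26) and 7.66 (6.56 to 8.90) and Dusp4 at 1.02 (0.815 to 1.25) and 18.0 (16.3 to 19.9). Spry1 (0.865 and 3.99) and Dusp6 (1.03 and 2.87) were lower in +4OHT too, while Dusp5 (2.12 and 2.15) and Spred1 (11.6 and 10.2) were at near-equal levels.

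These values moved with the clusters. The -4OHT cells came mostly from the Amn and Cubn cluster, nearly missing with 4OHT, and without it none of the 10 genes reached 20 CPM. Within the cluster led by Gkn1, the -4OHT level over the +4OHT level was 11.1 for Etv5 (95% interval 4.14 to 27.1, from 8 and 17 UMIs), 3.70 for Etv4 (1.52 to 7.85), 3.21 for Dusp6 (1.41 to 6.48) and 2.08 for Spred2 (1.45 to 2.92). Within the cluster led by Car4 it was 43.0 for Etv5 (15 to 169, from 27 and 4 UMIs), 15.9 for Spry4 (2.61 to 167, from 5 and 2 UMIs), 5.49 for Etv4 (3.28 to 9.13), 3.54 for Dusp4 (1.46 to 8.09) and 1.88 for Spred2 (1.46 to 2.41). Spry2 was at ratios of 0.95 (0.597 to 1.44) and 1.04 (0.787 to 1.35) in these clusters. Other intervals held 1 as well. In the Gkn1 cluster these were Dusp4 at 2.46 (0.954 to 5.36), Spry4 at 4.71 (0.502 to 22.1) and Spred1 at 1.11 (0.723 to 1.63). Spry1 at 0.827 (0.0978 to 3.13) and Dusp5 at 0.575 (0.117 to 1.72) had ratios under 1 there. In the Car4 cluster they were Spry1 at 2.63 (0.921 to 6.66), Dusp6 at 2.03 (0.732 to 4.92) and Dusp5 at 1.54 (0.793 to 2.79). Spred1 was at 1.29 (1.01 to 1.64) in the Car4 cluster. The -4OHT library held Epi-like cells and the +4OHT library none, so that free Epi RNA differs between the libraries along with 4OHT, and its part in these low counts was not tested.

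The pathway lists are read beside the 8.46% of all genes that were higher and the 3.47% that were lower with 4OHT. They were compared over the pooled endoderm-like cells only, whose clusters differ between the libraries, and not within clusters. The part of the clusters in these values was not tested. Of 23 core cascade genes at 20 CPM or more, 2 were higher with 4OHT, Rras (88.4 against 42.4) and Sos1 (26.8 against 13.1), and 0 lower. Of 9 other ETS factors 3 were higher, Elf1 (117 against 54.1), Etv3 (39.1 against 18.1) and Ets2 (29.5 against 12.3), and 0 lower. Dusp1 (23.8 against 8.38), Errfi1 (23.2 against 8.87) and Fos (20.3 against 3.85) were higher as 1 each of 3 other phosphatases, 4 receptor-level regulators and 8 ERK-responsive genes. Of 3 FGF ligands and receptors, Fgfr2 was lower (2.54 against 20.4). Of the genes named in these lists, only Rras and Elf1 reached 20 CPM in both libraries. The direction of the others followed from the filter and is no finding. The median ratio of all 6810 genes was 1.11. Fibroblast markers summed to 89.8 CPM in these cells with 4OHT and 42.5 without, and Fbn1, the 1 of them at 20 CPM or more, was at 80.9 and 33.5.

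Between Epi-like and endoderm-like cells of -4OHT, lists again split. Of 22 core cascade genes 1 was higher and 3 lower in Epi-like cells, with Frs2 at 15.9 against 48.6 CPM, and of 5 other ETS factors 0 were higher and 3 lower, with Ets1 at 0.664 against 25.8. Flrt3 was at 6.65 against 218 CPM, Plaur at 3.16 against 50.2, Ccnd1 at 60.6 against 8.65 and Fgf4 at 31.8 against 1.84. Of 2 other phosphatases Dusp1 was higher (26.8 against 8.38) and Dusp9 lower (82.9 against 215). Of the genes named here, only Dusp9 reached 20 CPM in both classes. The direction of the others followed from the filter and is no finding.

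Endoderm-like cells of the -4OHT library were finally split by whether they held a Pou5f1 UMI, each cell thinned to 5000 UMIs, with 92 cells holding one and 1235 not. A further 46 cells were too shallow. Dusp4 was at 41.3 CPM (24.9 to 64.5) in the first and 13.9 (11.1 to 17.2) in the second, from 19 and 86 UMIs. Spry4 was at 21.7 (10.4 to 40.0) and 4.21 (2.75 to 6.17), and Etv4 at 43.5 (26.6 to 67.1) and 19.3 (16.0 to 23.1). These 3 of the 5 genes at 20 CPM or more were beyond a ratio of 2, where 1.7% of 6407 genes were higher and 5.06% lower (6.76% together). All 5 reached 20 CPM only in the 92 cells with a Pou5f1 UMI, Spry4 on 10 UMIs. The direction of this count therefore followed from the filter and is no finding. Before thinning, 310 of the 336 Pou5f1 UMIs of -4OHT endoderm-like cells lay in the Amn and Cubn cluster. That cluster also held the highest levels of Dusp4, Spry4 and Etv4 among these cells, so the split and the cluster cannot be told apart here.

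Spry2 (32.6 and 17.0) and Spred2 (26.1 and 19.4) were within a ratio of 2, and Etv5 was at 8.70 (2.37 to 22.3) and 9.72 (7.41 to 12.5). With the cells marked by Scrublet left out, none of the 10 genes met the rule of size. The log2 ratio of Dusp4 went from 1.57 to 0.79 and that of Etv4 from 1.17 to -0.52, while that of Spry4 went from 2.37 to 1.79, still beyond 2-fold but under 20 CPM on both sides. Within the Amn and Cubn cluster alone 1 gene met it. Of 22 core cascade genes 0 were beyond the ratio, and Dusp7 (28.3 against 14.1), Etv3 (6.52 against 21.7) and Fgf3 (23.9 against 10.4) were the ones named by size in their lists. Fbn1 was at 8.70 and 40.6 CPM. Dusp7, Etv3, Fgf3 and Fbn1 each reached 20 CPM on 1 side only, so their direction followed from the filter and is no finding.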

How the data were processed

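The deposited bulk table holds raw counts of reads by gene symbol. Its aligner, counter, build, annotation and use of strand are not given in the sources read here, and the submitters' processing notes name mm10, bcl2fastq and Cell Ranger without roles. 35 blank lines at the end of the table were left out. The deposited single-cell matrices hold raw counts of UMIs for each gene in each barcode, made with Cell Ranger per the file headers. Bulk totals ran from 8019631 to 11642571, and all pairs of libraries of a group differed beyond sampling noise.

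Bulk counts were fitted in R 4.3.3 with edgeR 4.0.16 (filterByExpr, TMM, glmQLFit and glmQLFTest on all 9 libraries, group as the only term), with p-values adjusted by Benjamini-Hochberg over 14185 genes. The threshold was an adjusted p below 0.05 with an absolute log2 fold change above 1.5, and "passed the test" means the adjusted p. Log2 CPM used a prior count of 2. Replicate numbers came from the labels. Deviations of same-numbered libraries correlated across genes at 0.271, 0.477 and 0.321 between DP and Pdgfra+, so that these were taken as paired, a pairing read from the counts, and not in the other pairs of groups (-0.0728 to 0.152). DESeq2 1.42.0, upper-quartile scaling, other filters, blocks and left-out libraries were alternatives.

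Single-cell barcodes were clustered with scanpy 1.11.5 (2000 variable genes, 20 components, 20 neighbours, Louvain in igraph 0.11.9 at resolution 0.2). Scrublet marked 211 cells in -4OHT and 1 in +4OHT, where it has therefore not worked, and marked cells were kept. UMIs were summed per class and library. The rule of size was a ratio beyond 2 with at least 20 CPM on either side. The fit was tested on simulated data. The 10 genes, the lists and the markers were chosen with earlier results of these data known, and named list genes are up to 3 per list by size of change, with the single gene of highest correlation for each of the 10. Amn, Cubn and the other genes that name clusters are their leading genes by fold.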

Additional observations from a re-analysis of the deposited data

How the results depend on the processing

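In Oct4+ against Pdgfra+ the counts of 8 past the threshold and 9 by adjusted p held under all 13 alternatives. In Oct4+ against DP the 4 past the threshold became 8 with upper-quartile scaling, which shifts the median log2 fold change of all genes to 0.26, and 3 to 6 with 1 library left out, and the 9 by adjusted p became 7 to 9. In DP against Pdgfra+ the 1 and 2 became 2 and 6 with DESeq2, 2 and 6 with every gene tested, 2 and 5 under the replicate block on 9 libraries, 3 and 7 under the block on 6, and 0 to 3 and 0 to 3 with 1 library left out (0 and 0 without DP replicates 2 or 3 or Pdgfra+ replicates 1 or 3, 3 and 3 without DP replicate 1). Numbers pair no libraries of Oct4+ with DP. There the block left Dusp4 at a log2 fold change of -1.495 on 9 libraries and -1.496 on 6, under the limit on size, with edgeR adjusted p 0.00589 and 0.0111, and put Etv4 at 1.69 (edgeR adjusted p 0.0303) and 1.55 (0.0687). It changed no other call. Dusp6 in DP against Pdgfra+ ran from -0.14 to 0.40 with 1 library left out, under 0 without DP replicate 1 (-0.08) and without Pdgfra+ replicate 3 (-0.14). Causes were not tested. Genes past the threshold over the whole table numbered 552, 3933 and 4535 in DP against Pdgfra+, Oct4+ against DP and Oct4+ against Pdgfra+. With a stricter filter, which tests fewer genes, they numbered 338, 2153 and 2476. For the first, DESeq2 gave 870, no filter 1023 and left-out libraries 57 to 728. The share of calls in the higher direction went from 52.7% to 40.1% in Oct4+ against DP and from 54.1% to 42.1% in Oct4+ against Pdgfra+ with that stricter filter.

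In +4OHT against -4OHT endoderm-like cells the 2 genes that met the rule of size became 1 without marked doublets, with log2 ratios still at -4.44 for Etv4 (-4.69 with them) and -1.19 for Spred2 (-1.29), so that the level and not the ratio fell short, and Dusp6 went from -1.48 to -0.63. Alternatives by cluster were chosen after seeing the data, as was leaving out shared barcodes: the 2 became 0 within the cluster led by Gkn1, 0 within that led by Car4 and 0 without the Amn and Cubn cluster, where none of the 10 reaches 20 CPM. In the split by a Pou5f1 UMI the 3 became 7 with a stricter filter on barcodes, 0 without marked doublets, where Etv4 turned to -0.52 and Spry4 stayed at 1.79 (2.37 with them), and 1 in the Amn and Cubn cluster alone. The stricter filter left 102 -4OHT cells in the endoderm-like cluster led by Amn and Cubn and 163 in the other endoderm-like cluster. The 7 therefore rest on fewer cells, and Scrublet marked 22.3% of that Amn and Cubn cluster as doublets. Epi-like against endoderm-like cells gave 6 to 7 under all 10 alternatives, of which 1 was lower (Dusp4) with the stricter filter on barcodes and against the Amn and Cubn cluster alone. Dusp4 changed sign in the 3 alternatives without that cluster. In the split, 92 cells held 19 Dusp4 UMIs. Levels under 20 CPM rest on few UMIs, and with 1 library per condition no alternative gives a replicate error.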
